A study of Mus musculus with 8 samples.

Results

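The hnRNP and SR genes are 2 families whose proteins bind nascent RNA and steer its splicing. They were taken here as every gene whose symbol in the platform annotation starts with Hnrnp, Hnrp, Srsf or Sfrs. This gave 26 of the 17097 genes measured, 17 hnRNP genes and 9 SR genes, carried by 72 probe sets. Where a gene had several probe sets, the brightest on average stands for it. Values are log2 probe set values, so 1 unit is a 2-fold difference. The study asked which striatal mRNAs are held by CPEB1 and CPEB4, cytoplasmic proteins that bind a U-rich element in mRNA and regulate its poly(A) tail. Striatum of male WT mice and of male HD mice, 7 to 8 months old, was combined into 1 pool per genotype; the design text speaks of 4 mice. The pools were crosslinked with formaldehyde, precleared on bare beads, and divided into an input aliquot and 3 precipitates, made with antibodies to CPEB1 or to CPEB4 or with rabbit IgG. Each of the 4 fractions of each pool went on 1 array after amplification over 27 cycles. The labels do not spell out HD or give its allele, promoter or strain.

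SR proteins carry an RNA recognition motif and a tail rich in arginine and serine, and they mostly promote the use of an exon when bound within it. hnRNPs package nascent RNA and many of them repress nearby splice sites, so the balance of the families shapes which exons a neuron keeps. Several members also shuttle to the cytoplasm and act there on transport, stability and translation of mRNA. Both families tune their own levels through alternative exons and 3′ ends that decide whether the mRNA survives.

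Levels of different genes are not compared with one another here, because each probe set has its own affinity. The 8 arrays had like medians over all probe sets, 4.03 to 4.28. In each pool the CPEB4 array had the widest spread of tested genes (SD 1.79 and 1.68 for WT and HD, against 1.28 to 1.68 on the other 6 arrays). Of 9 medium spiny neuron markers fixed for this tissue 7 were measured, and 6 of these exceeded 4.23 in both inputs, the level that marks the middle of all probe set averages. Their mean was 7.65 in input, 7.54 with IgG, 7.90 with CPEB1 and 8.09 with CPEB4, while that of 4 oligodendrocyte markers was 8.22, 7.74, 8.27 and 8.996. The IgG arrays stood apart in the oligodendrocyte list, at 9.08 in WT and 6.40 in HD, with the WT array near the WT CPEB4 array at 9.13. Medium spiny neuron markers were at 8.24 in WT and 6.85 in HD with IgG. They were lower in HD with CPEB1 as well, at 8.595 in WT and 7.211 in HD, and with CPEB4, at 8.53 and 7.65. In input they were at 7.70 in WT and 7.59 in HD. For these markers the WT CPEB4 array, at 8.53, was nearer to the WT CPEB1 array than to the WT IgG array. The mean of the 2 blood markers measured was 8.70 in input, 7.96 with IgG, 7.52 with CPEB1 and 7.27 with CPEB4. The part of these shifts in the results was not tested. In pooled tissue, fewer cells of a type and less RNA per cell cannot be told apart.

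Both families stood high on the CPEB4 arrays. The median hnRNP gene was at 7.10 in WT and 6.49 in HD with CPEB4, and between 4.19 and 5.07 on the other 6 arrays. The median SR gene was at 6.68 and 5.48 with CPEB4, and between 3.57 and 4.32 elsewhere. Neither family's CPEB4 medians overlapped those of any other fraction, while the median of all genes was lowest on those arrays, at 4.65 and 4.68 against 4.75 to 4.85. Of the 26 members, 22 lay above 4.23 on each CPEB4 array and 12 to 17 on each other array, while the share of all genes above it was at most 61.5% with CPEB4 and 63.4% to 67.7% elsewhere. In 12 members, 8 hnRNP and 4 SR genes, both CPEB4 arrays were above all 6 others, against 8.8% of all genes. One member, Hnrnpa1, had both CPEB1 arrays on top (2.68% of all genes), 1, Hnrnpll, both input arrays (9.18%), and none both IgG arrays (5.34%).

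**Figure D1:**
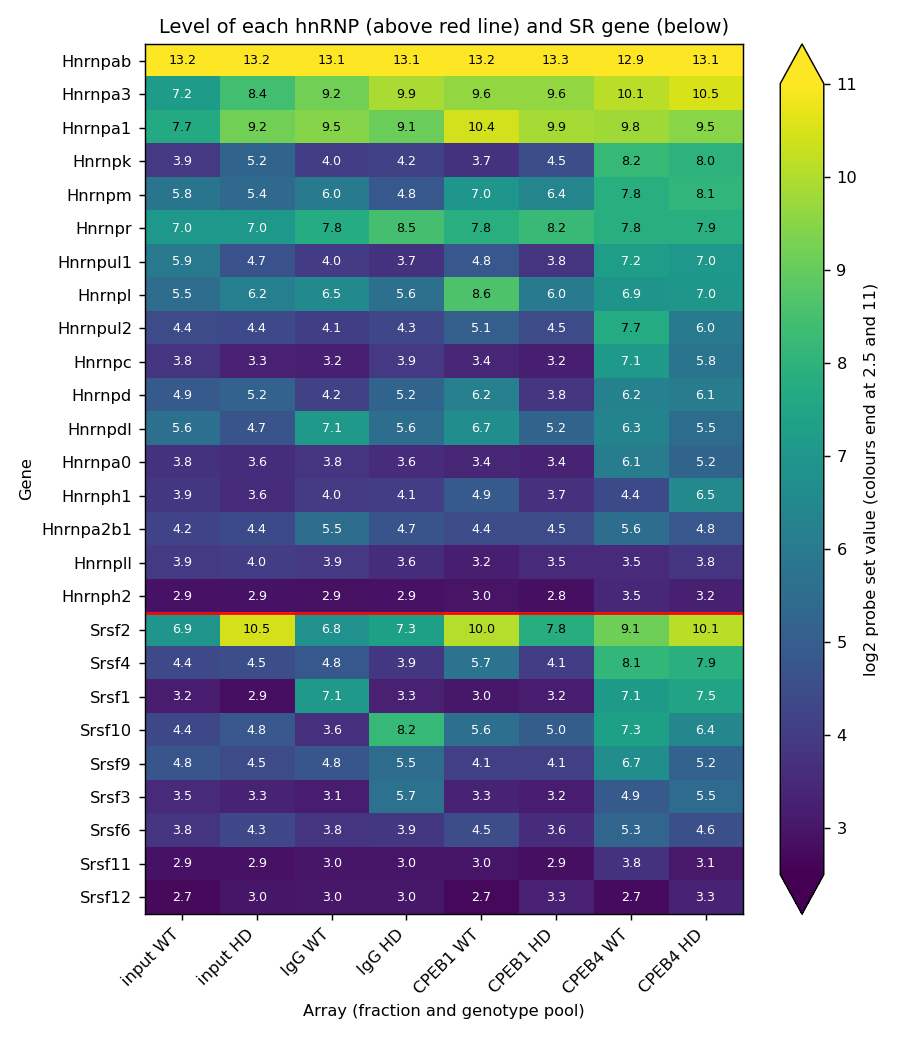
Level of each of the 26 genes on the 8 arrays as log2 probe set values, with 1 row per gene and 1 column per fraction and pool; hnRNP genes are above the red line and SR genes below it, each ordered by the mean of the CPEB4 arrays. Rows such as Hnrnpk, Hnrnpc and Srsf4 are dark on 6 arrays and light on the 2 CPEB4 arrays, whereas Hnrnpab is near 13 on all 8.

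**Figure D2:**
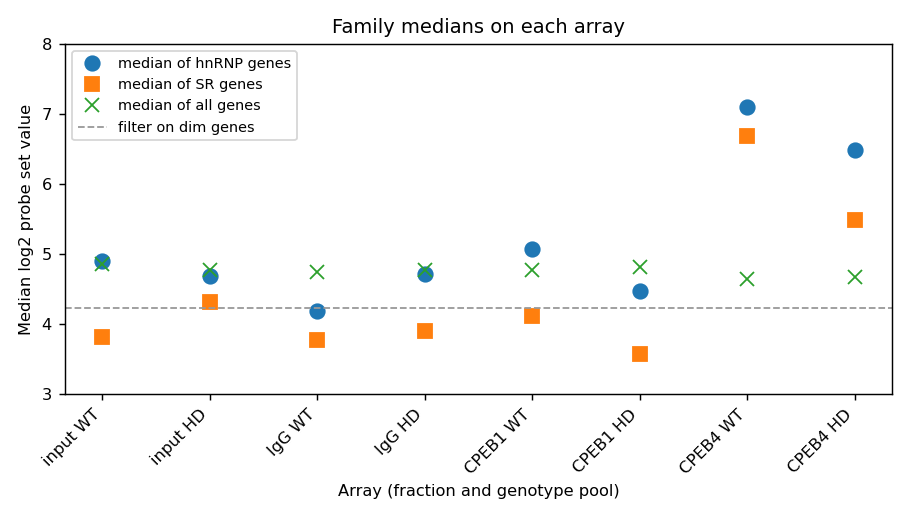
Median log2 probe set value of the 17 hnRNP genes, the 9 SR genes and all 17097 genes on each of the 8 arrays, with the filter on dim genes at 4.23 as a dashed line. The medians of both families are highest on the CPEB4 arrays, where the median of all genes is lowest.

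CPEB4 was set against IgG, which measures RNA carried down without the specific antibody. By limma 4 members were higher with CPEB4 and none lower, out of 18 that passed the filter on dim genes (mean over the 8 arrays above 4.23), against 2.33% of all genes tested called higher. They were Hnrnpk, Hnrnpul1 and Hnrnpm among 13 hnRNP genes tested, and Srsf4 among 5 SR genes tested. A mean difference of 2-fold or more with the same sign in both pools was seen upward in 12 of the 26 members, tested or not, and downward in none, against 15.4% of all genes upward. Over all members the median log2 difference was 0.91, beside -0.16 over all genes. The order of size put Hnrnpk at rank 60, Srsf4 at 106, Hnrnpul1 at 189 and Hnrnpm at 528 from the top of 11345 genes tested.

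Hnrnpk encodes a poly(C)-binding hnRNP that works in the nucleus and in the cytoplasm, where it also acts on translation. Its values were 3.92 and 5.23 in the WT and HD inputs, 4.03 and 4.18 with IgG, 3.75 and 4.53 with CPEB1, and 8.19 and 8.01 with CPEB4. Both CPEB4 arrays stood about 4 units above both IgG arrays, with the pools close together. The difference was 3.99 ± 0.42 on the log2 scale (SE, n = 2 pools, adjusted p = 0.0367), or 15.9-fold. A second Hnrnpk probe set differed less, at 3.86 and 4.21 with IgG against 5.15 and 4.86 with CPEB4.

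Hnrnpul1 and Hnrnpul2 encode relatives of hnRNP U, a scaffold protein of the nucleus. Hnrnpul1 stood at 5.92 and 4.66 in input, 3.96 and 3.74 with IgG, 4.81 and 3.78 with CPEB1, and 7.25 and 7.04 with CPEB4. Its CPEB4 difference from IgG was nearly the same in WT and HD, 3.28 and 3.30, giving 3.29 ± 0.38 (adjusted p = 0.0367). Hnrnpul2 had 4.09 and 4.32 with IgG and 7.74 and 6.03 with CPEB4, a difference of 2.68 ± 0.51 that did not pass (adjusted p = 0.0718). Its other probe set also separated the fractions, with 3.69 and 3.86 against 8.06 and 5.36.

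Hnrnpm encodes a splicing regulator that binds GU-rich RNA. It was measured at 5.80 and 5.42 in input, 6.05 and 4.84 with IgG, 6.98 and 6.38 with CPEB1, and 7.84 and 8.09 with CPEB4. It was the only called member whose CPEB1 arrays also both exceeded its IgG arrays by more than 0.9. The CPEB4 difference from IgG was 2.52 ± 0.40, just past the threshold (adjusted p = 0.0491). That call was lost without a filter (adjusted p = 0.0586), under cyclic loess (0.0615), with trended robust eBayes (0.0536) and with the filter at the 75th percentile (0.0541).

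Srsf4 encodes a long-tailed SR protein and has 1 probe set. The input arrays read 4.36 and 4.53, IgG 4.84 and 3.88, CPEB1 5.73 and 4.06, and CPEB4 8.14 and 7.89. CPEB4 was 12.6-fold above IgG (3.66 ± 0.49, adjusted p = 0.0393), with no overlap between the fractions. Of the 4 called members, Hnrnpk and Hnrnpul1 had IgG values below 4.23 in both pools, and the fold of these 2 genes is therefore measured against dim signal. All 4 calls were lost, leaving 0 members, after quantile normalization and when the fit held the arrays of these 2 fractions alone. In both settings 0 of all genes tested were called. The calls were also lost without any 1 of the input, IgG or CPEB4 arrays, as were those of other genes. Hnrnpk, Hnrnpul1 and Srsf4 passed without either CPEB1 array.

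**Figure D3:**
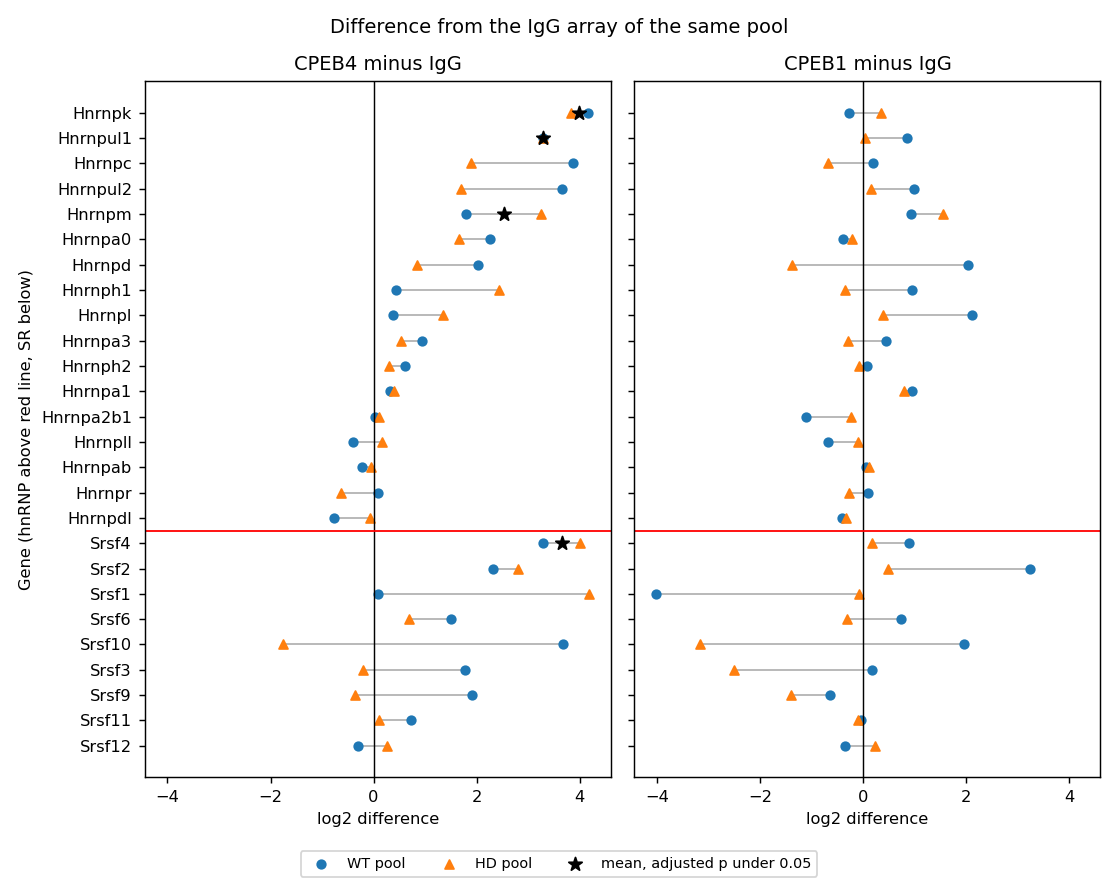
Log2 difference of the CPEB4 array (left) and the CPEB1 array (right) from the IgG array of the same pool for the 26 genes; circles are the WT pool, triangles the HD pool and stars the mean where limma's adjusted p was under 0.05. On the left 12 genes have a mean of 1 or more with both pools above 0; on the right 3 genes do and there is no star.

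The other hnRNP genes fell into those with large CPEB4 differences and those without. Hnrnpc, a U-tract binder that competes with splice site recognition, had 3.24 and 3.90 with IgG and 7.10 and 5.78 with CPEB4. Hnrnpa0, a member of the A/B group linked to AU-rich mRNA, had 3.82 and 3.57 against 6.07 and 5.23. Both CPEB4 arrays were above all others in each of these genes, but their means over the arrays, 4.21 and 4.11, lay under the filter, so they were not tested. The other 2 Hnrnpc probe sets were not high with CPEB4, reading 3.01 and 3.12, and 2.89 and 3.68, and one of them was highest on the HD IgG array at 5.84.

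Hnrnpd, also known as AUF1 and a regulator of AU-rich mRNA decay, stood at 4.19 and 5.23 with IgG and 6.22 and 6.08 with CPEB4 (1.44 ± 0.82, adjusted p = 0.321). Hnrnph1, which binds G-tracts, was apart from IgG mainly in the HD pool, with 3.97 and 4.06 against 4.40 and 6.49 (1.43 ± 0.78, adjusted p = 0.308). Outside CPEB4 it was above 4.23 only on the WT CPEB1 array, at 4.91, so its entry to the test depended on its CPEB4 arrays. Hnrnpl, a binder of CA repeats, had 6.52 and 5.64 with IgG and 6.91 and 7.00 with CPEB4 (0.87 ± 0.80, adjusted p = 0.497). For these genes the pools did not give like differences, and none passed the test.

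Hnrnpa2b1, known for carrying RNA into dendrites and myelin processes, read 5.53 and 4.71 with IgG and 5.56 and 4.82 with CPEB4, a difference of 0.07 ± 0.36. Its other sets differed by 0.33 and 1.02, by 0.31 and 0.54, and by 1.72 and -1.40 in WT and HD. Hnrnpr, which takes part in axonal mRNA transport, had 7.75 and 8.49 with IgG and 7.84 and 7.86 with CPEB4 (-0.27 ± 0.30). Hnrnpdl had 7.09 and 5.57 against 6.32 and 5.50 (-0.42 ± 0.30), while 1 of its other 3 sets went the other way, with 2.70 and 2.84 against 4.92 and 5.19. Hnrnpll, a lymphocyte splicing regulator, and Hnrnph2 stayed below 4.05 on all 8 arrays and were not tested.

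Hnrnpab, whose protein is found with transported neuronal mRNA, needs its probe sets shown one by one. The brightest set lay between 12.89 and 13.26 on all 8 arrays, close to the highest value on any array, 13.4, and differed by -0.13 ± 0.24 between CPEB4 and IgG. Of its other 4 sets, 3 were more than 2-fold higher with CPEB4 in the mean. One read 6.26 and 5.58 with IgG and 8.30 and 8.19 with CPEB4. The next read 5.49 and 5.48 against 7.36 and 6.53, and another 3.03 and 3.37 against 7.94 and 7.16, with the WT input also high there at 8.47. With all sets of a gene averaged instead of the brightest taken, Hnrnpab also passed and the count of members higher with CPEB4 was 5 of 13 tested. Over all genes 277 were called in that setting, in either direction.

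**Figure D4:**
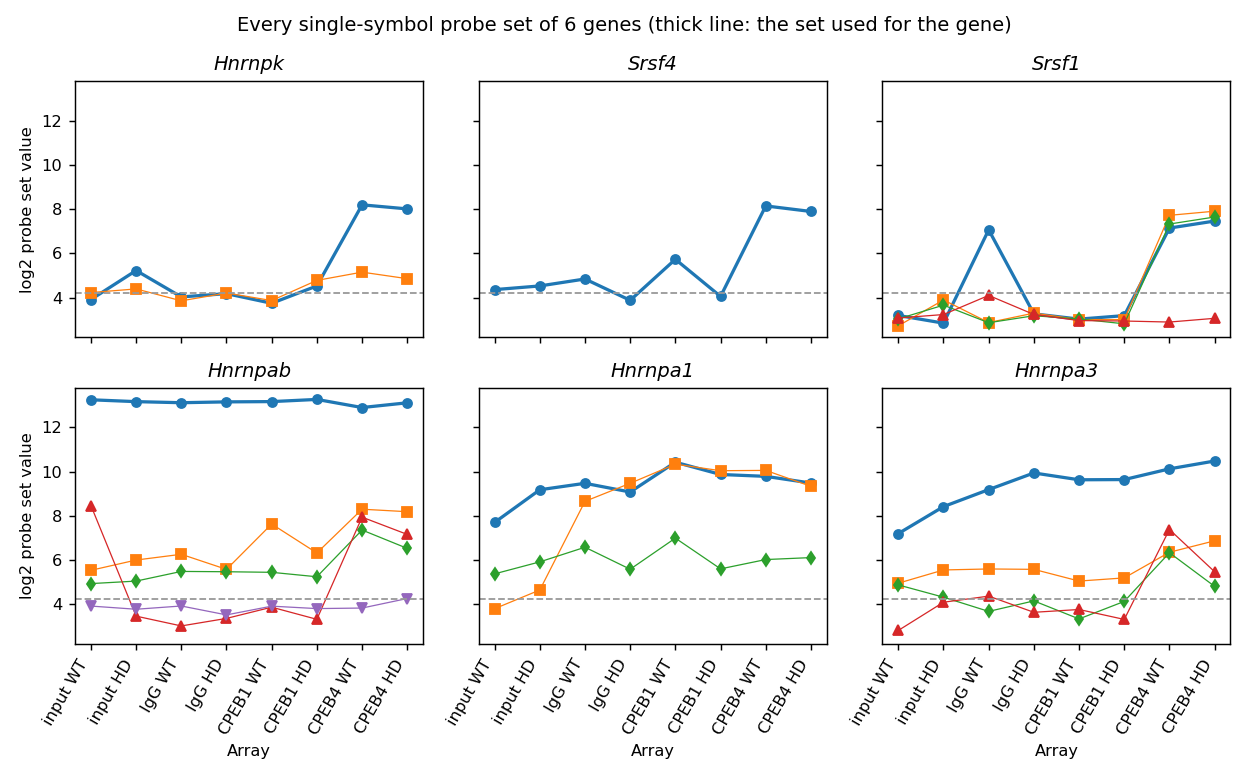
Log2 value of every single-symbol probe set of 6 genes on the 8 arrays; each line is 1 probe set, the thick line is the set used for the gene, and the dashed line is the filter at 4.23. For Srsf1, 3 of 4 sets are at 7 or above on both CPEB4 arrays and only the thick line is also high on the WT IgG array; for Hnrnpab the thick line is flat near 13 while 3 others are higher with CPEB4 than with IgG.

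Among the SR genes Srsf1, which encodes the founding SR protein ASF/SF2, depended most on the probe set. The set used for the gene read 3.20 and 2.85 in input, 7.06 and 3.27 with IgG, 3.03 and 3.19 with CPEB1, and 7.14 and 7.46 with CPEB4. Because of the single high IgG array, the difference from IgG was 2.14 ± 1.06 (adjusted p = 0.281). Outside CPEB4 the set used was above 4.23 on that array alone, so it entered the test through its CPEB4 arrays and that array. This set is of a kind (suffix _s) whose probes can match more than 1 transcript. The other 2 sets that were high with CPEB4 read 2.88 and 3.30, and 2.87 and 3.19, with IgG, against 7.72 and 7.91, and 7.33 and 7.64, with CPEB4. The fourth was below 4.2 on all arrays. When every probe set was fitted on its own, the first of those (a set with suffix _x, whose probes may cross-hybridise) passed, at 4.72 ± 0.37 (adjusted p = 0.0251). That set read only 2.73 to 3.90 on the 6 arrays without CPEB4, so it entered the test through its CPEB4 arrays and its difference is measured against dim signal.

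Srsf2, or SC35, marks nuclear speckles. It had 6.93 and 10.46 in input, 6.81 and 7.33 with IgG, 10.05 and 7.80 with CPEB1, and 9.14 and 10.13 with CPEB4. CPEB4 was above IgG in both pools by 2.33 and 2.80, but the spread over the fractions was wide (2.56 ± 1.28, adjusted p = 0.283) and both the WT CPEB1 array and the HD input array were as high as CPEB4. The set used is of the _s kind, and its other 4 sets differed between CPEB4 and IgG by -0.98 to 0.51 in either pool. Srsf9 had 4.78 and 5.52 with IgG and 6.68 and 5.16 with CPEB4, higher in WT only (0.77 ± 0.55, adjusted p = 0.401). Srsf10, an SR protein that represses splicing when dephosphorylated, read 3.64 and 8.19 with IgG and 7.32 and 6.43 with CPEB4, so the pools went opposite ways.

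Srsf6, whose protein has been studied for binding CAG-repeat huntingtin RNA, read 3.77 and 3.89 with IgG and 5.27 and 4.58 with CPEB4, and another of its sets went the same way, with 3.25 and 3.70 against 5.83 and 4.51. Its remaining 2 sets, dim at 2.62 to 4.08 on all arrays, had lower values with CPEB4 than with IgG in both pools. Srsf3, a small SR protein that also serves mRNA export, read 3.14 and 5.69 against 4.91 and 5.48. The other Srsf3 sets were dim, at 2.71 to 3.56 on all arrays, and differed by -0.45 to 0.40 in either pool. Neither Srsf6 nor Srsf3 was tested, since their means of 4.22 and 4.07 lay under the filter. Srsf11 and Srsf12 lay between 2.69 and 3.76 on all arrays, so both were dim throughout. Srsf11 is nevertheless among the 12 members whose CPEB4 arrays were on top, as is the equally dim Hnrnph2, and for these 2 the order rests on signal near background.

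Against input, 23 of 26 members were higher with CPEB4 in both pools and 2 lower, where 23.8% of all genes were higher and 49.1% lower. Hnrnpk (3.53 ± 0.42, adjusted p = 0.0411) and Srsf4 (3.57 ± 0.49, adjusted p = 0.0481) passed, 2 of 18 tested against 1.34% of all genes tested. A mean difference of 2-fold or more upward was reached by 16 members, against 13.4% of all genes, and the median over the members was 1.25 beside -0.19 over all genes. Hnrnpa3 came next to the threshold (2.49 ± 0.36, adjusted p = 0.05003), then Hnrnpm (2.35 ± 0.40, adjusted p = 0.0621), Hnrnpul1 (1.85 ± 0.38, adjusted p = 0.0817) and Hnrnpul2 (2.48 ± 0.51, adjusted p = 0.085). The largest difference was that of Srsf1 (4.28 ± 1.06, adjusted p = 0.11), measured against dim input values of 3.20 and 2.85. These comparisons share the CPEB4 arrays with those against IgG. The 2 calls were lost without any 1 of the 8 arrays, as were those of other genes.

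CPEB1 gave no such pattern. By limma 0 of 18 members passed against IgG, as did 0% of all genes tested, and 1 member, Hnrnpm, had an unadjusted p under 0.05, as did 836 of the 11345 genes tested. Of the 26 members 8 were higher and 7 lower in both pools (30.8% and 26.9%), near the 29.5% and 26.1% of all genes, with a median of 0.01 beside 0.02 over all genes. Upward by 2-fold or more were Srsf2 (1.86 ± 1.28), Hnrnpl (1.25 ± 0.80) and Hnrnpm (1.24 ± 0.40), 3 of 26 members against 7.08% of all genes, with adjusted p between 0.552 and 0.853. Hnrnpl owed its value to the WT array, at 8.64 against 6.02 in HD, where IgG read 6.52 and 5.64. Downward were Srsf1 (-2.06 ± 1.06) and Srsf9 (-1.03 ± 0.55), 2 members against 1.6% of all genes, and the former rests on the high WT IgG array named above.

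Compared directly, 19 of 26 members were lower with CPEB1 than with CPEB4 in both pools and 2 higher, where 20.9% of all genes were lower and 50.4% higher. Their median was -1.01 and that of all genes 0.18. No member passed (0.141% of all genes tested were called lower). A mean difference of 2-fold or more downward in both pools was seen in 12 members, against 10.1% of all genes. They were led by Srsf1 (-4.19 ± 1.06, adjusted p = 0.202), Hnrnpk (-3.96 ± 0.42, adjusted p = 0.0555), Srsf4 (-3.12 ± 0.49, adjusted p = 0.0917) and Hnrnpul1 (-2.85 ± 0.38, adjusted p = 0.0769). The CPEB1 values of Srsf1 were dim, at 3.03 and 3.19. Under the model without the pools as a block, Hnrnpk passed, and under cyclic loess or trended robust eBayes so did Hnrnpk and Hnrnpul1. Over all genes 81, 61 and 75 were called in these settings, in either direction. Untested Hnrnpc (-3.13), Hnrnpa0 (-2.26) and Srsf3 (-1.95) went the same way, and so did Hnrnpul2, Srsf9, Srsf10, Hnrnpm and Hnrnpd at -2.12 to -1.12. For Hnrnpd that rests on the HD pool, at 3.84 with CPEB1 and 6.08 with CPEB4, since the WT arrays both read 6.22. For Srsf3 it rests on the set used, as its other, dim sets differed by -0.24 to 0.24 in either pool.

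By the sets used for them, a pair of A/B genes was bright in the precipitates with IgG as well as in those with CPEB antibodies. Hnrnpa3 read 7.20 and 8.42 in input, 9.19 and 9.94 with IgG, 9.63 and 9.64 with CPEB1, and 10.12 and 10.48 with CPEB4. Hnrnpa1, which encodes an abundant A/B hnRNP that shuttles between nucleus and cytoplasm, read 7.70 and 9.18, then 9.47 and 9.08, 10.42 and 9.87, and 9.78 and 9.48. In HD its IgG array was thus no higher than its input array. A second Hnrnpa1 set had 3.81 and 4.65 in input and 8.65 to 10.33 on all 6 precipitate arrays. The third did not share that gap, with 5.38 and 5.92 in input and 6.58 and 5.59 with IgG. Nor did any of the other Hnrnpa3 sets in both pools. One had 4.88 and 4.33 in input and 3.68 and 4.16 with IgG. The next had 4.96 and 5.56 in input and 5.60 and 5.58 with IgG, and another 2.82 and 4.10, then 4.37 and 3.64. All 4 Hnrnpa3 sets were higher with CPEB4 than with IgG in both pools. For the set used the difference was 0.74 ± 0.36 (adjusted p = 0.278). Fitted on its own, the second Hnrnpa1 set passed for CPEB4 against input (5.46 ± 0.49, adjusted p = 0.0268), yet its IgG arrays, at 8.65 and 9.47, were nearly as high as its CPEB4 arrays, at 10.05 and 9.33. With the set used for the gene, CPEB4 differed from IgG by 0.36 ± 0.56 (adjusted p = 0.684).

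By limma 0 of 18 members passed for IgG against input, where 0.0264% of all genes tested did, and 4 members had an unadjusted p under 0.05, as did 1106 of the 11345 genes tested. Upward by 2-fold or more were Srsf1 (2.14 ± 1.06), Hnrnpa3 (1.75 ± 0.36), Hnrnpdl (1.19 ± 0.30) and Hnrnpr (1.09 ± 0.30), 4 members against 3.16% of all genes. The Srsf1 mean rests on the WT pool, with 3.87 in WT and 0.42 in HD. Downward were Srsf2 (-1.63 ± 1.28) and Hnrnpul1 (-1.44 ± 0.38), 2 members against 5.52%. The Srsf2 mean rests on the HD pool, with -0.12 in WT and -3.14 in HD. For CPEB1 against input 0 of 18 passed (0.0176% of all genes tested), with 6 at an unadjusted p under 0.05 beside 916 of the 11345 genes tested. Hnrnpa3 (1.83 ± 0.36), Hnrnpa1 (1.70 ± 0.56) and Hnrnpm (1.07 ± 0.40) were upward by 2-fold or more, 3 members against 5.59% of all genes.

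The families were then set side by side. Against IgG the median CPEB4 difference was 0.87 over 17 hnRNP genes and 0.96 over 9 SR genes, with 8 and 4 genes at 2-fold or more upward. Against input the medians were 1.19 and 1.30, with 11 and 5 such genes. For CPEB1 against CPEB4 they were -0.74 and -1.57, with 7 and 5 genes at 2-fold or more downward. The SR median for CPEB4 against IgG was 1.77 in WT and 0.26 in HD, and the hnRNP median 0.60 and 0.85, so the pools did not place the families in 1 order. With all sets of a gene averaged, the order of the families turned for all 3 comparisons, to 0.93 and 0.46, 1.20 and 0.57, and -1.14 and -0.33.

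The gap between the medians of the families on an array (hnRNP minus SR) reads as a change between fractions only, since the probe sets differ. It was 0.73 ± 0.50 in input (SD, n = 2 pools), 0.62 ± 0.28 with IgG, 0.92 ± 0.03 with CPEB1 and 0.72 ± 0.42 with CPEB4. IgG and CPEB1 lay further apart than the SD of either, and every other pair of fractions differed by less than the SD of at least 1 of them. An SD over 2 pools is itself imprecise. Over the single probe sets, 17 of 43 hnRNP sets and 7 of 29 SR sets were upward by 2-fold or more for CPEB4 against IgG, 39.5% and 24.1%, beside 15.1% of all single-symbol sets. For CPEB1 against IgG it was 4 hnRNP sets and 1 SR set, 9.30% and 3.45%, beside 6.14% of all sets. Downward it was 0 hnRNP sets and 2 SR sets, the latter 6.90% beside 1.48% of all sets.

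HD and WT were compared within each fraction on 1 array each, so these differences have no replicate check. In input 4 members were 2-fold or more higher in HD (7.84% of all genes) and 1 lower (3.3%). Srsf2 differed most, with 6.93 in WT and 10.46 in HD, a difference of 3.53. Hnrnpa1 (7.70 and 9.18), Hnrnpk (3.92 and 5.23) and Hnrnpa3 (7.20 and 8.42) were also higher in HD, and Hnrnpul1 (5.92 and 4.66) lower. The other 4 Srsf2 probe sets differed less, their largest gap being that of 4.94 in WT and 5.52 in HD. The second Hnrnpk set differed less too, at 4.23 and 4.40. A further Hnrnpa3 set was lower in HD, at 4.88 and 4.33, while its remaining sets were higher, at 4.96 and 5.56, and 2.82 and 4.10. The other Hnrnpa1 sets were higher in HD, at 3.81 and 4.65, and 5.38 and 5.92. Markers of other cells also differed between the inputs. Of 4 choroid plexus markers, Ttr stood at 6.60 in WT and 10.49 in HD and Clic6 at 4.68 and 8.45, while Kl (4.73 and 4.94) and Folr1 (4.25 and 4.31) were close. Of 5 astrocyte markers, Gfap stood at 6.13 and 8.61 and Slc1a3 at 3.54 and 3.95. Aqp4 (5.28 and 4.91), Aldh1l1 (5.64 and 4.47) and Slc1a2 (11.3 and 11.2) were instead lower in HD. The part of these in the differences was not tested.

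With CPEB4, 1 member was 2-fold or more higher in HD (3.5% of all genes), Hnrnph1 at 4.40 and 6.49 in WT and HD, and 3 lower (8.97%), Hnrnpul2 (7.74 and 6.03), Srsf9 (6.68 and 5.16) and Hnrnpc (7.10 and 5.78). With CPEB1, 0 were higher (2.59%) and 7 lower (12.2%). They were led by Hnrnpl (8.64 and 6.02), Hnrnpd (6.22 and 3.84) and Srsf2 (10.05 and 7.80), before Srsf4, Hnrnpdl, Hnrnph1 and Hnrnpul1. With IgG, 3 were higher (3.95%) and 3 lower (7%). The former were Srsf10 (3.64 and 8.19), Srsf3 (3.14 and 5.69) and Hnrnpd (4.19 and 5.23), and the latter Srsf1 (7.06 and 3.27), Hnrnpdl (7.09 and 5.57) and Hnrnpm (6.05 and 4.84). The IgG arrays thus differed by up to 4.56 between the pools in a member, and both enrichments over IgG use these arrays.

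Other splicing genes were counted from lists chosen by function. Of 12 tested hnRNPs under other symbols, such as the poly(C)-binding proteins and Syncrip, 0 passed for CPEB4 against IgG (2.33% of all genes tested did), with 5 at an unadjusted p under 0.05, and 8 of 16 measured were upward by 2-fold or more (15.4% of all genes). The largest were Syncrip (2.78 ± 0.65, adjusted p = 0.101), Pcbp2 (2.69 ± 1.10, adjusted p = 0.229), Pcbp4 (2.61 ± 0.74, adjusted p = 0.143) and Tardbp, which encodes TDP-43 (2.12 ± 0.74, adjusted p = 0.19). Cirbp, a cold-inducible RNA-binding protein, passed against input (2.39 ± 0.28, adjusted p = 0.041) and was lower with CPEB1 than with CPEB4 (-3.20 ± 0.28, adjusted p = 0.044). Its CPEB4 arrays read 7.30 and 7.60, against 4.20 to 5.70 on the other 6.

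Of 22 tested SR-related proteins and SR kinases, 1 passed for CPEB4 against IgG, Tnpo1, the import receptor of hnRNP A1 and related proteins (3.07 ± 0.30, adjusted p = 0.035), and 5 of 28 measured were upward by 2-fold or more, 17.9% and so near the share of all genes. Tnpo3, the import receptor of SR proteins, had 2.43 ± 0.90 (adjusted p = 0.202). Of 34 tested core spliceosome genes 1 passed, Snrpf, a subunit of the Sm ring (3.37 ± 0.45, adjusted p = 0.038), a count near the share of all genes called, and 13 of 37 measured (35.1%) were upward by 2-fold or more. The last list mixes tissue-restricted splicing regulators with broadly expressed ones. Of its 14 tested genes 3 passed, the tissue-regulated Mbnl1 (3.84 ± 0.54) and Rbfox2 (3.39 ± 0.48) and the broadly expressed spliceosome-associated factor Rbm17 (3.84 ± 0.53), each at adjusted p = 0.041. Rbfox2 was also high with CPEB1, at 10.25 and 8.93 against 6.75 and 5.58 with IgG (3.43, adjusted p = 0.149). The medians of these 4 lists for CPEB4 against IgG were 1.03, 0.17, 0.31 and 0.52, beside 0.91 for the hnRNP and SR genes.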

How the data were processed

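The authors deposited 1 log2 value per probe set and array, from RMA as the submitters' processing notes name it. No source used here states the RMA version or a joint summary of the 8 arrays. They were used as deposited. Of 45101 probe sets 28898 carry 1 symbol in the platform annotation, 551 several and 15652 none; 4 sets of the families with several symbols, among them the only Hnrnph3 set, were left out. Symbols of 28689 sets matched the RefSeq gene table of GRCm38.p6. The annotation names no genome build, and coordinates are left out. A planned count of RGG motifs in the members' proteins was not made here. Each gene was represented by its brightest single-symbol set, and 11345 genes with a mean above 4.23 (the median of all set means) were tested across all genes with limma 3.58.1 (functions lmFit and eBayes, under R 4.3.3), two-sided, Benjamini-Hochberg adjusted p under 0.05, fraction plus genotype pool as a block, 8 arrays, 3 residual and 2.29 prior degrees of freedom. The script was tested on simulated data. The 2 pools stand in for replicates. A p-value sets the difference only against how alike the 2 pools are over all 4 fractions, a spread moderated across genes. The number of arrays limits the precision. An unadjusted threshold of 0.05 is used for counts only. HD against WT rests on 1 array each and has no test.

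Named genes were those past the test or at 2-fold with the same sign in both pools, those at 2-fold between HD and WT, and the 3 highest and lowest of each family in input; the neighbouring lists had up to 4 by size, plus any past the test, and Tnpo3, Cirbp and single probe sets were added after their values were seen. Members and lists were chosen with earlier results of these data known. Alternatives were other filters (none, 75th percentile), the mean of a gene's sets, median centring, cyclic loess, quantile normalization, no block, trended robust eBayes, the 2 fractions' arrays alone, leaving out each array and fold thresholds of 1.5 and 3; fitting every probe set on its own was added after seeing the data.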

Additional observations from a re-analysis of the deposited data

Results flagged for a closer look

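In 5 cases the pools moved opposite ways by 2-fold or more each; with 1 array per pool the difference was not tested. Srsf10 was higher with CPEB4 than with IgG in WT (3.68) and lower in HD (-1.77), a difference between the pools (HD minus WT) of -5.45. Against the same IgG arrays, its CPEB1 values gave 1.96 in WT and -3.17 in HD, a difference of -5.13. Both rest on the HD IgG array, where Srsf10 read 8.19 against 3.64 in WT, while its other 3 probe sets lay between 2.72 and 3.95 on all 8 arrays. Hnrnpd was higher with CPEB1 than with IgG in WT (2.03) and lower in HD (-1.39), a difference of -3.42, and against input gave 1.31 and -1.32, a difference of -2.63. Its other probe sets gave 0.12 and 0.55, and 0.01 and 0.02, for CPEB1 against IgG. Against input they gave 0.36 and -0.79, and 0.07 and -0.22. Srsf2 with CPEB1 against input gave 3.12 in WT and -2.66 in HD, a difference of -5.77. The other Srsf2 probe sets gave between -0.85 and 0.45 in either pool.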

How the results depend on the processing

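The count of members higher with CPEB4 than with IgG was 4 of 18 tested as reported. It was 3 of 26 without a filter and 3 of 18 under cyclic loess or with trended robust eBayes, where Hnrnpm was lost. With the filter at the 75th percentile it was 1 of 10 (Srsf4), and Hnrnpk and Hnrnpul1 were not tested. Over all genes 215, 250, 237 and 135 were called in these settings in either direction, beside 264 higher and 5 lower as reported. The count was 0 of 18 after quantile normalization or with the arrays of the 2 fractions alone, and lower than reported without any 1 array. Against input the count of 2 of 18 became 5 of 18 with every probe set on its own. It was 1 of 26 without a filter and 1 of 13 with the mean of a gene's sets. Over all features 416 probe sets, 167 genes and 136 genes were called in these settings in either direction, beside 152 genes higher and 2 lower as reported. The member count was 0 of 10 with the 75th percentile filter, where 9 of all genes were called. It was 0 of 18 with quantile normalization or the 2 fractions' arrays. In the last 2 settings 0 of all genes were called in either comparison. Both calls against input were also lost without any 1 array. For CPEB1 against CPEB4 the count of 0 became 2 under cyclic loess, trended robust eBayes or every probe set on its own. It was 1 without the pools as a replicate block, and the block changed no other count of members. Over all features 61 genes were called under cyclic loess, 75 with trended robust eBayes and 81 without the block, beside 16 as reported. With every probe set on its own 145 sets were called. Counts for the other 3 comparisons stayed at 0 in every alternative run. The median log2 difference of the 26 members stayed above 0 for CPEB4 against IgG (0.50 to 1.10) and against input (0.87 to 1.55) and below 0 for CPEB1 against CPEB4 (-1.24 to -0.73) under 4 other scalings or summaries. Median centring moved the median of all genes for CPEB4 against IgG from -0.164 to -0.0027, and 13 members then reached 2-fold. HD against WT counts moved with the threshold: 1.5-fold gave 11 with CPEB1, 11 with CPEB4 and 13 with IgG, and 3-fold gave 4, 2 and 3, and 1 in input. With the mean of a gene's sets they were 4 with CPEB1, 2 with IgG and 1 in input; cyclic loess gave 10 with IgG, and quantile normalization 10 with IgG and 3 in input. The family gap with CPEB1 was 0.53 with the mean of sets, 1.10 over members past the filter and 0.89 after quantile normalization, and with CPEB4 0.0016 over members past the filter. In 4 differences that did not pass, leaving out 1 array turned the sign: for CPEB1 against IgG, Hnrnpl ranged from -0.036 without the WT CPEB1 array to 2.53 without the HD one and Srsf2 from -0.10 to 3.82; for CPEB1 against CPEB4, Hnrnpd from -2.50 without the WT CPEB1 array to 0.26 without the HD one; for IgG against input, Srsf2 from -3.52 without the WT input array to 0.26 without the HD one. The causes were not tested. An arm left with 1 array was taken to vary like the others. Members under 4.23 on most arrays are near the array background, which limits what can be read from them.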
